A study of Mus musculus with 6 samples.

Results

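Intronless protein coding genes are transcribed as a single exon, so their mRNAs reach the cytoplasm without having passed through the spliceosome. In hearts of 4-day-old mice, 256 such genes were compared between Wtap-CKO and Wtapflox/flox animals. The members were the protein coding genes of the deposited FPKM table (fragments scaled to exon length and to the depth of each library) whose exonic length equals the span from the first to the last base of the gene. Of 22046 protein coding genes in the table, 1528 met this rule. The rule left out 173 of them on chromosomes X, Y and MT, 217 on other chromosomes with olfactory, vomeronasal or trace amine receptor names, and 5 genes by name. Of the remaining 1133 genes, 511 were at 0 in all 6 libraries, 366 were above 0 but below a mean of 1 FPKM, and 256 had a 6-library mean of 1 FPKM or more. The level that chose the members is the mean over both genotypes, and the difference between the genotypes was not part of the rule. Of the members, 247 reached 1 FPKM in both genotype means and 9 in the mean of 1 genotype only. Just above the limit were Gpr135 at a mean of 1.01, Ankrd63 at 1.02 and A930002H24Rik at 1.05 FPKM, and just below it were Ch25h at 0.976, Tssk6 at 0.960 and 1110032F04Rik at 0.942 FPKM.

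WTAP is the regulatory subunit that anchors the METTL3 and METTL14 methyltransferase pair, which writes N6-methyladenosine (m6A) on adenosines of nascent mRNA. m6A is known to mark transcripts for decay, translation or export through reader proteins. It is sparse near exon junctions, where exon junction complexes deposited by splicing keep the methyltransferase away, and it is found more freely inside long exons. An intronless mRNA receives no exon junction complex by splicing and depends on other adaptors for export. Many genes of rapid responses, including heat shock chaperones, C/EBP factors and replication-dependent histones, are intronless.

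The 3 Wtap-CKO samples are hearts with a conditional knockout of Wtap. The 3 Wtapflox/flox samples are hearts of mice that carry the floxed alleles. All 6 were collected at 4 days of age, and polyadenylated RNA was sequenced from each. The Cre driver, the cell type it acts in, the deleted exons, the sex of the mice and whether a library holds more than 1 heart are not given in these sources. The labels call the samples independent biological replicates.

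Assigned reads, recovered from the FPKM values, numbered 15812407 to 18045599 in the Wtap-CKO libraries and 15649028 to 17115796 in the Wtapflox/flox libraries. Wtap itself had 9.32, 7.75 and 9.46 FPKM in the Wtap-CKO hearts, against 7.77, 8.74 and 10.9 FPKM in the Wtapflox/flox hearts, with a log2 fold change of -0.04 (95% interval -0.37 to 0.29, adjusted p = 0.893, exact two-sided permutation p = 0.9, where the smallest possible is 0.1). With the deleted exons unknown, whole-gene values do not check the labels. Cardiomyocyte markers were abundant in both genotypes, with summed levels of 18979 to 22745 FPKM in Wtap-CKO and 18222 to 21873 FPKM in Wtapflox/flox hearts. Of 12 tested, 1 was lower and none higher, with a median log2 fold change of -0.19 and 3 above 0. Of the marker lists, macrophage markers summed to 78.1 to 147 FPKM in Wtap-CKO and 54.0 to 60.6 FPKM in Wtapflox/flox hearts, with 3 of 9 tested markers higher and none lower. Fibroblast markers summed to 653 to 848 FPKM in Wtap-CKO and 834 to 956 FPKM in Wtapflox/flox hearts, with 3 of 12 lower and none higher. Their median log2 fold change was -0.19 too. In bulk tissue, fewer cells of a type and less RNA per cell cannot be told apart.

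The members lie on all 19 autosomes. Their mean level ranged from 1.01 to 156 FPKM with a median of 7.12 FPKM, and their length from 93 to 11294 bases with a median of 2354 bases, against 4024 bases for all tested genes. Checked against the GENCODE M39 annotation, 189 members have single-exon transcripts only, 15 have a single-exon main transcript beside spliced ones, 46 have a spliced main transcript and 6 could not be matched. The label therefore does not hold for those 46 in the newer annotation. They include Pop7, Scx, Zfp36, Fabp4, Gpx1, Atf4, Dynll1 and Id1. Pop7, Scx, Zfp36 and Atf4 are marked as such where their values are given in the text. Others of the 46 may be given without a mark, and the class counts include them.

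Promoter sequences are shown for 4 of the members that rose most, because they carry a short element known from the gene's class. The element is marked in capitals. For the heat shock chaperones it is GAANNTTC, the inverted pair of the GAA unit bound by heat shock factors, and for Cebpb it is TGACG, the core of the cyclic AMP response element, or its reverse complement, CGTCA. Each sequence is the 250 bases before the gene start in the direction of transcription, from RefSeq on GRCm38.p6: chr17:34972157-34972406 (minus strand) for Hspa1a, chr17:34959239-34959488 (minus strand) for Hspa1b, chr13:113663677-113663926 (minus strand) for Hspb3 and chr2:167688665-167688914 (plus strand) for Cebpb.
Hspa1a: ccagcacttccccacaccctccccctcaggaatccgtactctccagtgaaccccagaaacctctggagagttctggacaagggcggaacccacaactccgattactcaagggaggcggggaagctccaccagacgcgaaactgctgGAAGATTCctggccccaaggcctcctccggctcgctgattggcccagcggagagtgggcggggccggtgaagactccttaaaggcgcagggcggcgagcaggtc
Hspa1b: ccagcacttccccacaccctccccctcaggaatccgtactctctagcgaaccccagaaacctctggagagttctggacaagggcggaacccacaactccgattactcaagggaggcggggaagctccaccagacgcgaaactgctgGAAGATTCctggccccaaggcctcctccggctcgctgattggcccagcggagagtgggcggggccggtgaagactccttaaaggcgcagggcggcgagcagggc
Hspb3: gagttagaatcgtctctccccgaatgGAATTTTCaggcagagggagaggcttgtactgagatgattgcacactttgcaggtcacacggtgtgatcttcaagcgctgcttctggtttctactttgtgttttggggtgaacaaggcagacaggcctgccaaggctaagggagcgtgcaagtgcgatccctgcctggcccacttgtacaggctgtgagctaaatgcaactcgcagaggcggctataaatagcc
Cebpb: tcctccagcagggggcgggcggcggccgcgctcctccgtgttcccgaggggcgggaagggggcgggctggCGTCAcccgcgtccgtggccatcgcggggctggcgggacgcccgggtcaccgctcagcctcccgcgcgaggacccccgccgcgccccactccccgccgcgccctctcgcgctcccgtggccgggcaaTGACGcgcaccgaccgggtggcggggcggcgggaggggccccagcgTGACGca
The Hspa1a and Hspa1b windows differ in 3 of 250 bases, and each holds 1 GAANNTTC match, starting 104 bases before the gene start. Hspb3 holds 1 match, starting at 224 bases before it. Searching for GAANNTTC and for the other inverted pair of the unit, TTCNNGAA, both of which read the same on either strand, found a match in 12.8% of 32851 RefSeq promoters of that length, and in 16 of the 163 members with a promoter entry (9.82%). The Cebpb window holds 3 matches to that element on either strand, at 180, 53 and 7 bases before the start, and at least 1 is held by 17.8% of all promoters and by 49 of the 163 members (30.1%). The shares of all promoters count promoter entries, while those of members count genes, so the units differ. A match describes letters in the window and is not evidence of binding.

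The comparison asked how the genes differed between Wtap-CKO and Wtapflox/flox hearts. In Wtap-CKO hearts 47 members were higher and 20 were lower at an adjusted p under 0.05, and 189 did not pass. These counts include 4 members that reached 1 FPKM in the mean of 1 genotype only. Hspa1a and Alyref2 were higher, and Gpr135 and 9130023H24Rik lower. Across all 12568 genes tested, 9.91% were higher and 6.69% lower, or 16.6% in either direction, while among the members 18.4% were higher and 7.81% lower, or 26.2% in either direction. The share of members that rose was thus above the background, and the share that fell was near it. The median log2 fold change of the members was 0.15, with quartiles of -0.15 and 0.49, and that of all tested genes was 0.00. A total of 60.9% of the members lay above 0.

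Without regard to the test, all 3 Wtap-CKO values lay above all 3 Wtapflox/flox values for 78 members (30.5%, against 19.8% of all tested genes) and below them for 34 members (13.3%, against 17.3%). The members' median deviation from their mean over the 6 libraries was 0.10, 0.01 and 0.11 on the log2 scale in the Wtap-CKO libraries and -0.14, -0.06 and -0.04 in the Wtapflox/flox libraries. Wtap-CKO replicate 2 was the lowest of its genotype, and the genotypes did not overlap. Members made up 1.25%, 1.14% and 1.37% of summed FPKM in Wtap-CKO hearts and 1.08%, 1.18% and 1.13% in Wtapflox/flox hearts, where Wtap-CKO replicate 2 lay inside the range of the other genotype.

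**Figure D1:**
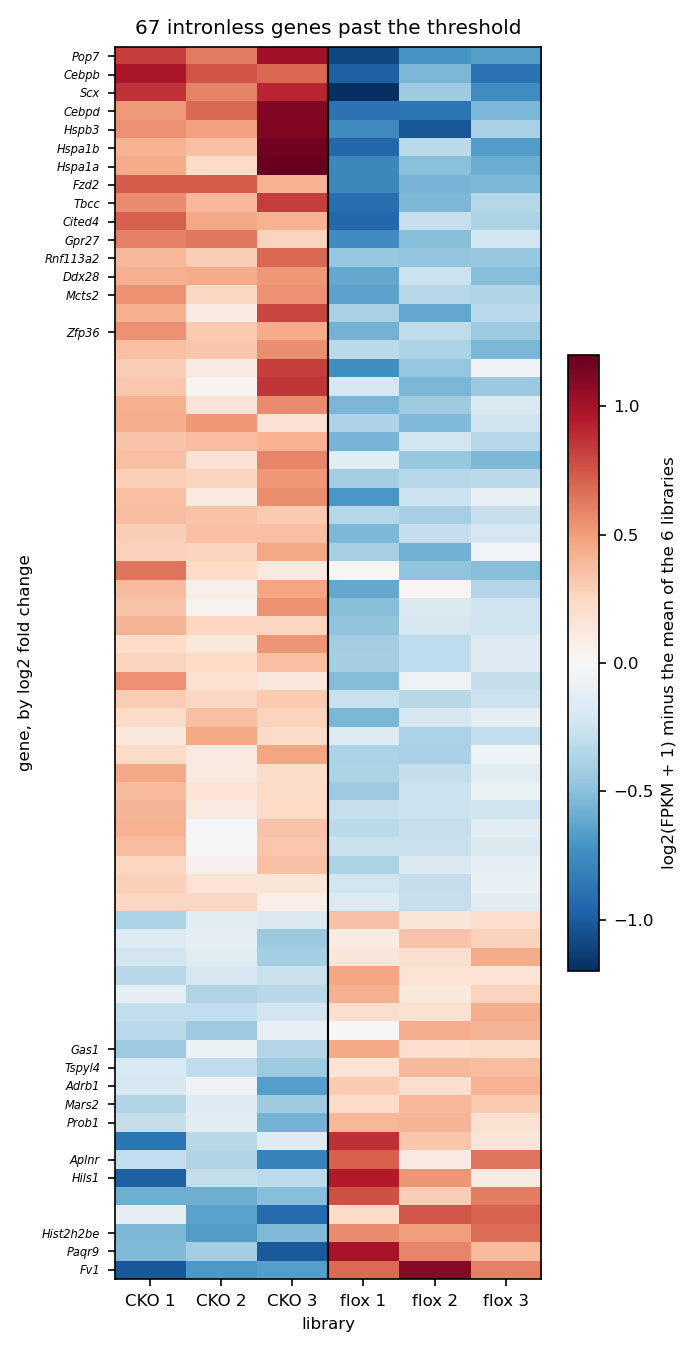
Heat map of the 67 intronless genes past the threshold, 1 row per gene ordered by log2 fold change (names given for the genes in the plot of FPKM by library) and 1 column per library (CKO, Wtap-CKO; flox, Wtapflox/flox). Colour gives log2(FPKM + 1) minus the gene's mean over the 6 libraries: the 47 upper rows are above 0 mainly in Wtap-CKO, and the 20 lower rows mainly in Wtapflox/flox.

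The counts rest on few libraries and on the scaling of FPKM. Higher members numbered 25 without Wtap-CKO replicate 1, 29 without Wtapflox/flox replicate 1 and 25 without Wtapflox/flox replicate 2. These were 9.77%, 11.3% and 9.77% of members, against 5.99%, 5.64% and 6.10% of all tested genes. Lower members numbered 11, 12 and 6 in the same refits, and 13 without Wtapflox/flox replicate 3. These were 4.30%, 4.69%, 2.34% and 5.08% of members, against 3.52%, 4.31%, 3.41% and 3.76% of all tested genes. Rescaling to TPM moved the median of all tested genes by over 0.1, to -0.13. It gave 31 higher and 31 lower members with a median of 0.01. That was 12.1% of members in each direction, against 6.36% higher and 12.7% lower of all tested genes. Leaving mitochondrially encoded genes out of the total moved the all-gene median to -0.14. It gave 30 higher and 31 lower members (11.7% and 12.1%, against 6.16% and 12.7% of all tested genes). There 49.2% of the members' calls were higher, against 70.1% on the deposited scale. For all tested genes these shares of calls were 32.7% and 59.7%. The members' median stood 0.14 to 0.15 above that of all tested genes under each of the 4 scalings tried.

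Exon content went with the calls across the other coding genes. Tested autosomal coding genes that are not members were binned by the share of the gene span that is exon. Of the 256 members, 18.4% were higher and 7.81% lower, with a median log2 fold change of 0.15. The 1228 genes with more than 50% but not all of their span in exons had 17.8% higher, 3.91% lower and a median of 0.13. The 3585 genes with 20% to 50% had 10.7% higher and 5.63% lower, the 2972 genes with 10% to 20% had 8.78% and 7.40%, and the 1744 genes with 5% to 10% had 9.35% and 7.05%. The 978 genes with up to 5% had 7.87% higher and 9.82% lower with a median of -0.05. The members therefore resembled the most compact intron-containing genes in the share that rose, and had a larger share that fell. Genes are not replicates, and no test was made of these shares.

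**Figure D2:**
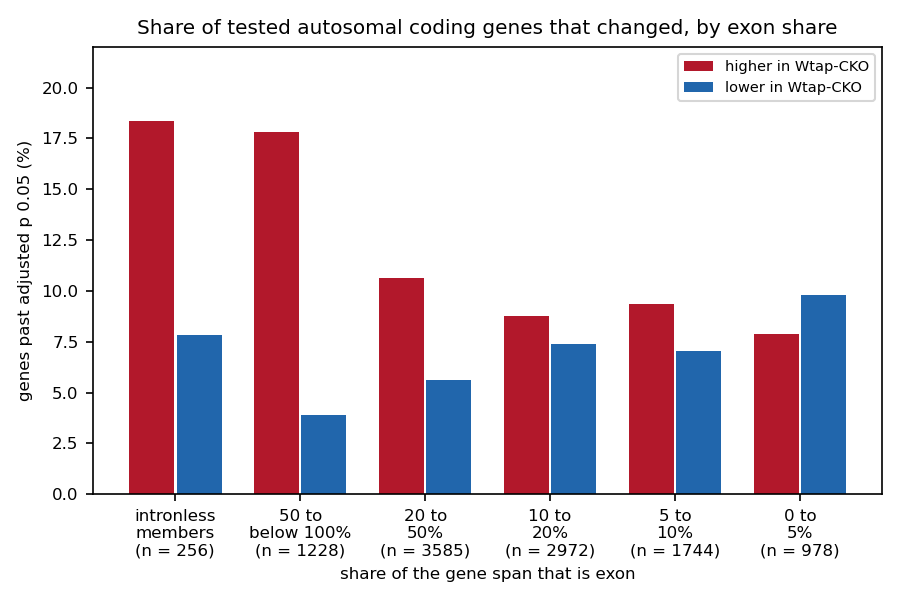
Percent of tested autosomal coding genes higher (red) and lower (blue) in Wtap-CKO at an adjusted p under 0.05, for the intronless members and for the other genes binned by the share of their span that is exon, with the number of genes under each bin. The red bars stand at 18.4% for the members and 17.8% for the next bin, and at 7.87% for the genes with the least exon.

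Annotated structure divided the members further. The 204 members with a single-exon main transcript had 37 higher and 18 lower with a median log2 fold change of 0.07, which was -0.05 under TPM scaling and -0.06 without mitochondrially encoded genes in the total. The 46 members with a spliced main transcript had 10 higher and 2 lower with a median of 0.31, which stayed between 0.16 and 0.27 under the 4 scalings. The median of all tested genes was itself -0.13 under TPM scaling and -0.14 without mitochondrially encoded genes in the total.

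Level and length also went with the calls. Of 55 members at a mean of 20 FPKM or more, 15 were higher and 1 was lower (27.3% and 1.82%, against 13.6% and 4.66% of all tested genes at that level). Of 37 members at 1 to 2 FPKM, 1 was higher and 3 were lower (2.70% and 8.11%, against 5.43% and 8.10% of all tested genes). Of 64 members between 1000 and 2000 bases long, 19 were higher and 6 lower (29.7% and 9.38%, against 17.4% and 6.19%), and of 54 members over 4000 bases, 4 were higher and 3 lower (7.41% and 5.56%, against 6.89% and 7.12%). Calls thus varied with level and length among all tested genes too. The part of level and length in the calls was not tested. Main transcripts of the higher members, the lower members and those without a call held a median of 4.26, 3.69 and 3.52 matches per kilobase to GGAC followed by A, C or T, letters of the m6A consensus, against 3.6 in other tested autosomal coding genes. Median GC content was 55.6%, 50.4% and 52.8% in the same 3 classes.

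**Figure D3:**
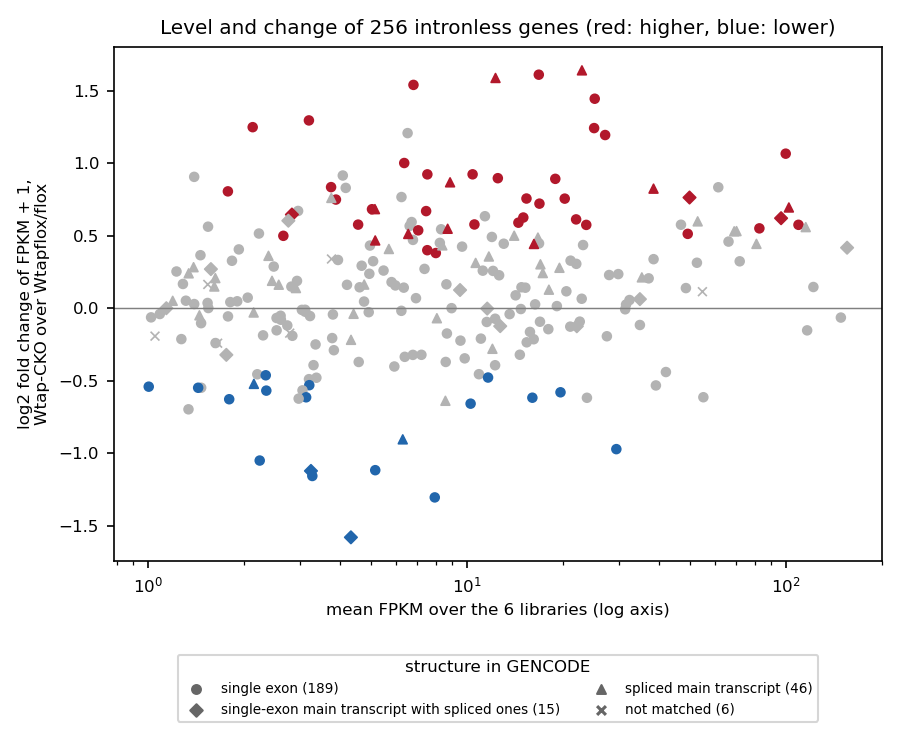
Log2 fold change (Wtap-CKO over Wtapflox/flox) against the mean FPKM of each of the 256 intronless genes, with symbols for the annotated structure and colour for the call (red higher, blue lower, grey not passed). Above 20 FPKM the called genes are 15 higher and 1 lower, and spliced main transcripts (triangles) lie mostly above 0.

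Transcription factors of the bZIP and bHLH classes held some of the largest rises. Of 7 members, 3 were higher and 1 lower, with a median log2 fold change of 0.53, and 0 to 1 were lower with 1 library left out. The counts of this class and of those below stand beside 9.91% higher and 6.69% lower of all tested genes. Cebpb, a leucine zipper factor of the acute phase and inflammatory response (ENSMUSG00000056501, chr2:167688915-167690418, plus strand), had 29.1, 24.7 and 23.6 FPKM in Wtap-CKO hearts, against 6.75, 9.41 and 7.28 FPKM in Wtapflox/flox hearts. Its log2 fold change was 1.61 ± 0.15 (SE, adjusted p = 0.000638), and the groups stood far apart. Cebpd, its relative on chromosome 16, had 8.58, 9.80 and 13.5 FPKM in Wtap-CKO hearts, against 2.63, 2.67 and 3.59 FPKM in Wtapflox/flox hearts (1.54 ± 0.17, adjusted p = 0.00119). Every Wtap-CKO library was above every control library for both. For these and the other genes named for the largest rises and falls, groups that do not overlap were a condition of the choice. Cebpa, the third C/EBP member, gave 1.86, 1.57 and 2.0 FPKM in Wtap-CKO hearts, against 1.31, 1.69 and 1.03 FPKM in Wtapflox/flox hearts, which overlap (log2 fold change 0.27, adjusted p = 0.246). Among macrophage markers the complement subunits C1qb and C1qa were higher by 0.94 and 0.78 in the Wtap-CKO hearts, with adjusted p-values of up to 0.0556 and 0.108 when 1 library was left out. The part of macrophage content in the values of this class was not tested.

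Scx, the scleraxis factor of tendon and valve progenitors, had 19.8, 16.2 and 20.5 FPKM in Wtap-CKO hearts, against 3.94, 7.43 and 5.82 FPKM in Wtapflox/flox hearts (1.59 ± 0.20, adjusted p = 0.00168). It has a spliced main transcript in GENCODE M39 and lies inside Bop1 on the opposite strand, and Bop1 had a log2 fold change of 0.31 (adjusted p = 0.157). Atf4, the effector of the integrated stress response, also annotated with a spliced main transcript, missed the threshold at 78.8, 73.6 and 92.2 FPKM in Wtap-CKO hearts, against 47.5, 59.7 and 61.6 FPKM in Wtapflox/flox hearts (0.53, 95% interval 0.17 to 0.89, adjusted p = 0.0505). Its groups did not overlap, and it passed in the fit on recovered reads (0.54, adjusted p = 0.0254). It did not pass under any of the 4 other scalings or with any 1 library left out.

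Overlap with other genes touches some of these values. Cebpb shares 60.4% of its span with Tmem189 on the opposite strand, which rose by 0.50 (adjusted p = 0.0306), a call lost under 3 of the 4 other scalings (adjusted p = 0.0508 to 0.0995) and without any 1 library except Wtap-CKO replicate 2 (0.0518 to 0.109). The labels do not say whether counting used strand. Among all members, 100 overlap another gene and had 20 higher and 8 lower, and the 156 that overlap none had 27 higher and 12 lower.

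Of 4 heat shock chaperones 3 were higher and none lower. Among the 3 at 1 FPKM or more in both genotype means, 2 were higher. Hspb3, a small heat shock protein of muscle, had 32.4, 31.0 and 48.6 FPKM in Wtap-CKO hearts, against 12.5, 10.2 and 16.3 FPKM in Wtapflox/flox hearts (1.44 ± 0.21, adjusted p = 0.00338). Hspa1b, an inducible HSP70, had 3.95, 3.77 and 7.26 FPKM in Wtap-CKO hearts, against 0.921, 1.95 and 1.33 FPKM in Wtapflox/flox hearts (1.29 ± 0.24, adjusted p = 0.0107). Wtap-CKO replicate 3 was the highest library for each, and the groups did not overlap. Hspa1a, the neighbouring HSP70 gene, had 2.78, 2.25 and 5.35 FPKM in Wtap-CKO hearts, against 0.619, 0.954 and 0.837 FPKM in Wtapflox/flox hearts (1.25 ± 0.24, adjusted p = 0.01). Its Wtapflox/flox mean of 0.803 FPKM lay under 1 FPKM, so that it met the level rule through the Wtap-CKO hearts and its call adds no support to the class.

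Hspa1a and Hspa1b are 99.2% identical over 2201 bases and lie 9951 bases apart, so reads cannot be split between them with certainty in the shared stretch. Dnajc30, a J-domain protein of mitochondria, had 12.9, 13.1 and 10.9 FPKM in Wtap-CKO hearts, against 8.53, 10.2 and 11.7 FPKM in Wtapflox/flox hearts, which overlap (0.26, adjusted p = 0.248). Of 21 tested heat shock factors and partner chaperones outside the members, 3 were higher and none lower, with a median of 0.23. Those 3 were Hspb1 (1.33, adjusted p = 0.0072), Hspb8 (0.89, adjusted p = 0.0032) and Cryab (0.72, adjusted p = 0.0236), all small heat shock proteins.

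Genes of RNA processing and translation made up 16 members, of which 7 were higher and none lower, with a median log2 fold change of 0.44. The number higher was 4 to 6 under the other scalings and 2 to 8 with 1 library left out. Pop7, a subunit of RNase P and RNase MRP, which mature tRNA and rRNA (ENSMUSG00000029715, chr5:137501438-137502518, minus strand), had the largest log2 fold change of all members, at 35.3, 30.4 and 40.0 FPKM in Wtap-CKO hearts, against 8.54, 11.5 and 11.9 FPKM in Wtapflox/flox hearts (1.64 ± 0.16, adjusted p = 0.000734). The added 1 FPKM sets that order: by the ratio of mean FPKM, Wtap-CKO over Wtapflox/flox, Hspa1a (4.31), Cebpd (3.59) and Hspa1b (3.57) stood above Pop7 (3.31). It has a spliced main transcript in GENCODE M39 and lies within the span of Epo, which was at 0 in all libraries. Rpp25, the subunit that pairs with the POP7 protein in both enzymes, had 5.48, 5.19 and 5.86 FPKM in Wtap-CKO hearts, against 7.54, 8.22 and 6.03 FPKM in Wtapflox/flox hearts (-0.34, adjusted p = 0.117), so its groups stood apart in the opposite direction without passing the test. It passed as lower under TPM scaling (-0.48, adjusted p = 0.0417) and without mitochondrially encoded genes in the total (-0.49, adjusted p = 0.0379).

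Ddx28, a mitochondrial RNA helicase of ribosome assembly, had 9.86, 9.99 and 10.6 FPKM in Wtap-CKO hearts, against 4.29, 5.76 and 4.67 FPKM in Wtapflox/flox hearts (0.92 ± 0.13, adjusted p = 0.00234). Its host on the opposite strand, Dus2, rose too, by 0.57 (adjusted p = 0.0142), a call lost without Wtap-CKO replicate 1 (0.0524) or Wtapflox/flox replicate 3 (0.0544). The nucleolar factors Imp3 and Utp3, which act on the small ribosomal subunit precursor, rose by 0.76 and 0.61. Both calls are lost without Wtap-CKO replicate 1 (adjusted p = 0.0504 for Imp3 and 0.0535 for Utp3), and that of Imp3 also without Wtapflox/flox replicate 2 (0.0564). Kti12, a partner of the tRNA-modifying Elongator complex, and the ribosomal genes Mrpl32 and Rpl22l1 rose by 0.54, 0.47 and 0.44, and their calls were lost under TPM scaling (adjusted p = 0.0673, 0.104 and 0.121) and without 3, 5 and 5 of the 6 libraries. Kti12 lies within Txndc12 on the same strand, and Txndc12, at a mean of 25.2 FPKM, gave 0.44 (adjusted p = 0.104). The part of Txndc12 reads in the Kti12 values was not tested. Rrs1, another ribosome assembly factor outside this class, had 25.1, 25.5 and 26.4 FPKM in Wtap-CKO hearts, against 12.9, 16.5 and 15.2 FPKM in Wtapflox/flox hearts (0.76 ± 0.12, adjusted p = 0.00494). Mars2, a translation gene that the class by name leaves out too, was lower, with its values given below. The most abundant member of all, the RNA-binding protein Pcbp1, had 176, 168 and 190 FPKM in Wtap-CKO hearts, against 120, 146 and 134 FPKM in Wtapflox/flox hearts, apart but short of the threshold (0.42, adjusted p = 0.0884). Hnrnpa0, next in level, had 147, 144 and 144 FPKM in Wtap-CKO hearts, inside the 127 to 166 FPKM of Wtapflox/flox hearts.

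Export and exon junction factors were examined because intronless mRNAs depend on them differently. None of 13 tested exon junction complex genes passed the test in either direction (median 0.04). Of 32 mRNA export genes 2 were higher and none lower (median -0.07). One of these 2 is a member, Alyref2, a relative of the export adaptor ALYREF, which had 2.29, 1.68 and 3.74 FPKM in Wtap-CKO hearts, against 1.26, 0.791 and 0.931 FPKM in Wtapflox/flox hearts (0.81 ± 0.21, adjusted p = 0.0315). Its call is lost without any 1 of 5 libraries, Wtap-CKO replicate 2 being the exception, with adjusted p-values of 0.0525 to 0.103, and its Wtapflox/flox mean lay under 1 FPKM. The other is Rbm15, an adaptor of the m6A writer, higher by 0.87 (adjusted p = 0.0081).

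**Figure D4:**
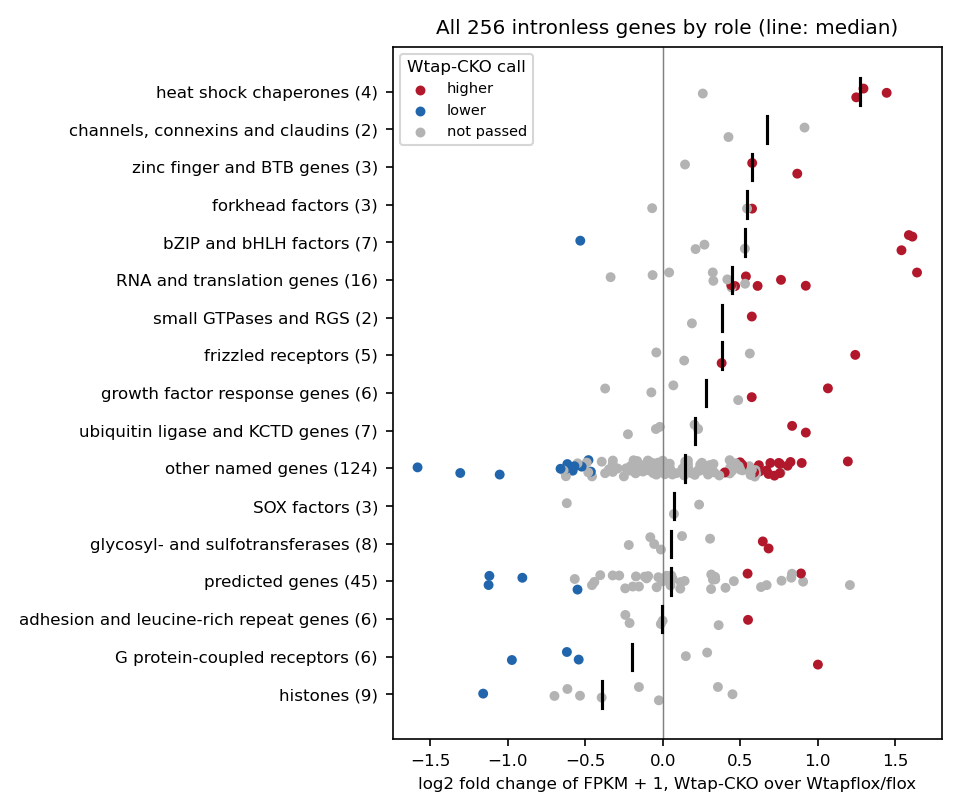
Log2 fold change (Wtap-CKO over Wtapflox/flox) of FPKM + 1 for all 256 intronless genes, grouped by role with the number of members in brackets, coloured by call and with a line at each group's median. Histones have the lowest median (-0.39), and the line for heat shock chaperones includes Hspa1a, which met the level rule through Wtap-CKO hearts only.

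Frizzled receptors, which bind WNT ligands at the cell surface, had 5 members, of which 2 were higher and none lower, with a median of 0.38. Fzd2 had 38.1, 38.1 and 30.7 FPKM in Wtap-CKO hearts, against 12.9, 15.1 and 15.3 FPKM in Wtapflox/flox hearts (1.24 ± 0.14, adjusted p = 0.00108). Every Wtap-CKO library was above every control library, a condition of the choice of the largest rises. The call held in every setting tried. Fzd8 had 9.55, 9.56 and 8.41 FPKM in Wtap-CKO hearts, against 6.96, 6.37 and 7.10 FPKM in Wtapflox/flox hearts (0.38 ± 0.11, adjusted p = 0.0498). That call is lost under each of the other 4 scalings (adjusted p = 0.0692 to 0.269) and without any 1 library except Wtap-CKO replicate 3 (0.0983 to 0.177).

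Fzd9 had 2.75, 2.06 and 1.34 FPKM in Wtap-CKO hearts, against 0.776, 1.18 and 1.16 FPKM in Wtapflox/flox hearts (0.56, adjusted p = 0.0744), apart but not past the threshold. Fzd7 (0.14, adjusted p = 0.525) and Fzd1 (-0.04, adjusted p = 0.875) had overlapping groups. By mean FPKM the order in Wtap-CKO hearts was Fzd2, Fzd1, Fzd8, Fzd7 and Fzd9, with Fzd7 and Fzd9 overlapping at 2.52 to 3.61 and 1.34 to 2.75 FPKM, and in Wtapflox/flox hearts Fzd2 and Fzd1 overlapped at 12.9 to 15.3 and 12.7 to 15 FPKM. Of 29 other WNT pathway genes tested, 6 were higher and 1 lower, with a median of 0.18. Those with the smallest adjusted p-values were Nkd2, an intracellular WNT antagonist (1.07, adjusted p = 0.000919), Frzb, a secreted frizzled-related protein (0.83, adjusted p = 0.00793), and Wif1, a secreted inhibitor (-0.74, adjusted p = 0.0029).

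G protein-coupled receptors were divided: of 6 members 1 was higher and 3 were lower, with a median of -0.20. Gpr27, an orphan receptor, had 9.47, 9.68 and 7.27 FPKM in Wtap-CKO hearts, against 3.08, 3.82 and 4.87 FPKM in Wtapflox/flox hearts (1.0 ± 0.16, adjusted p = 0.00494). Aplnr, the apelin receptor of endothelium and heart muscle, had 22.1, 21.1 and 15.2 FPKM in Wtap-CKO hearts, against 45.5, 29.4 and 43.2 FPKM in Wtapflox/flox hearts (-0.97 ± 0.20, adjusted p = 0.0130). The lowest control library was still above the highest Wtap-CKO library. Adrb1, the main beta-adrenergic receptor of cardiomyocytes, had 13.4, 14.8 and 9.43 FPKM in Wtap-CKO hearts, against 19.6, 17.9 and 21.1 FPKM in Wtapflox/flox hearts (-0.62 ± 0.17, adjusted p = 0.0357). Without Wtap-CKO replicate 1, or without any 1 Wtapflox/flox library, its adjusted p was 0.0677 to 0.106. Gpr135, an orphan receptor and the lowest member in level, fell by 0.54 (adjusted p = 0.0371) and met the level rule through the Wtapflox/flox hearts. Its call is lost when any 1 library is left out (adjusted p = 0.0554 to 0.129).

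Endothelial markers, given beside Aplnr, were 2 higher and 1 lower of 12, with summed levels of 410 to 426 FPKM in Wtap-CKO and 370 to 409 FPKM in Wtapflox/flox hearts. Their part in the Aplnr values was not tested.

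Histones had the lowest median of all classes, -0.39, which was -0.56 to -0.45 under the other scalings, and -0.23 without Wtap-CKO replicate 3 and -0.21 without Wtapflox/flox replicate 3. Of 9 members 1 was lower and none higher, and 2 to 3 were lower under the other scalings. Most replication-dependent histone mRNAs end in a stem-loop and lack a poly(A) tail, so selection on poly(A) captures them in part only. Hist2h2be, an H2B gene, had 1.73, 1.48 and 1.73 FPKM in Wtap-CKO hearts, against 4.84, 4.59 and 5.30 FPKM in Wtapflox/flox hearts (-1.16 ± 0.11, adjusted p = 0.000787). The values were tight within each genotype and wide apart between them. H2afx, the variant of the DNA damage response, had 42.1, 37.1 and 49.0 FPKM in Wtap-CKO hearts, against 45.8, 76.1 and 80.7 FPKM in Wtapflox/flox hearts (-0.61, adjusted p = 0.094), where Wtap-CKO replicate 3 lay above Wtapflox/flox replicate 1. It passed as lower under each of the 4 other scalings (-0.79 to -0.70, adjusted p = 0.0193 to 0.046) and without Wtapflox/flox replicate 1 (-0.87, adjusted p = 0.0182). Hist3h2a (-0.70, adjusted p = 0.0635) passed under TPM scaling (-0.79, adjusted p = 0.038) and without Wtap-CKO replicate 1 (-0.91, adjusted p = 0.0297). Its Wtap-CKO mean of 0.808 FPKM lay under 1 FPKM, so that it met the level rule through the Wtapflox/flox hearts. Its passes add no support to the class, and the 3 lower histones under TPM scaling include it. Hist1h4h at 0.45 (adjusted p = 0.453) and H2afj at 0.36 (adjusted p = 0.236) were on the other side of 0. Of 16 genes of histone mRNA processing tested, 2 were higher and none lower: Lsm10 (1.27, adjusted p = 0.0031) and Lsm11 (0.71, adjusted p = 0.0061), both subunits of the U7 particle that cuts histone pre-mRNA.

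Among growth factor response genes 2 of 6 were higher and none lower. Cited4, a CBP/p300-binding coactivator known in mice from physiological heart growth, had 153, 128 and 123 FPKM in Wtap-CKO hearts, against 47.5, 76.4 and 70.9 FPKM in Wtapflox/flox hearts (1.07 ± 0.20, adjusted p = 0.0084). It was the most abundant of the strongly raised members. Ier5, an immediate early gene, rose by 0.57 (adjusted p = 0.0256), a call lost under TPM scaling (0.0584) and without Wtap-CKO replicate 1 or 2 or Wtapflox/flox replicate 1 or 2 (0.0589 to 0.074), while its relative Ier5l gave -0.37 (adjusted p = 0.066), which passed as lower under each of the 4 other scalings.

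Zfp36, or tristetraprolin, which binds AU-rich mRNA and promotes its decay, had 12.8, 10.7 and 11.8 FPKM in Wtap-CKO hearts, against 5.36, 6.64 and 5.95 FPKM in Wtapflox/flox hearts (0.87 ± 0.12, adjusted p = 0.00278). It too has a spliced main transcript. Zfp830 rose by 0.58 (adjusted p = 0.0121), lost without Wtapflox/flox replicate 2 (0.57, adjusted p = 0.0515), and the 2 were the higher ones of 3 zinc finger members. Of 7 ubiquitin ligase and KCTD genes 2 were higher and none lower: Rnf113a2, a relative of a spliceosomal zinc finger protein, with 13.3, 12.3 and 16.4 FPKM in Wtap-CKO hearts, against 6.89, 6.78 and 6.90 FPKM in Wtapflox/flox hearts, and Kctd11, a cullin adaptor that restrains Hedgehog signalling, with 4.84, 4.73 and 5.70 FPKM in Wtap-CKO hearts, against 2.63, 2.5 and 2.12 FPKM in Wtapflox/flox hearts. Their log2 fold changes were 0.92 (adjusted p = 0.00259) and 0.83 (adjusted p = 0.00315), and in both genes the groups were apart.

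The smaller classes held few calls. Of 8 glycosyl- and sulfotransferases 2 were higher, B3gnt9 by 0.68 and B3galt4 by 0.65, the second being lost under 3 of the 4 other scalings and without 4 of the 6 libraries (adjusted p = 0.072 to 0.153). Of 3 forkhead factors Foxc2, a factor of vessel and valve formation, was higher by 0.58 (adjusted p = 0.0419) and lost its call under 3 of the 4 other scalings and without 4 of the 6 libraries (adjusted p = 0.0537 to 0.134). Of 6 adhesion and leucine-rich repeat genes Lrrc10, a cardiac Z-disc protein, was higher, at 88.2, 112 and 95.2 FPKM in Wtap-CKO hearts, against 72.6, 61.9 and 65.6 FPKM in Wtapflox/flox hearts (0.55, adjusted p = 0.0356), and this was lost under all 4 other scalings (0.33 to 0.46, adjusted p = 0.0661 to 0.23) and without any 1 of 5 libraries (0.0569 to 0.139), Wtap-CKO replicate 3 being the exception. The small GTPase Rhob had 133, 127 and 133 FPKM in Wtap-CKO hearts, against 88.8, 85.0 and 89.6 FPKM in Wtapflox/flox hearts (0.57 ± 0.13, adjusted p = 0.0182). The spread within each genotype was small, yet the call is lost without Wtap-CKO replicate 1 (0.0774), Wtapflox/flox replicate 2 (0.0874) or Wtapflox/flox replicate 3 (0.06). It is also lost under quantile normalization (0.37, adjusted p = 0.0775) and without mitochondrially encoded genes in the total (0.40, adjusted p = 0.0592). None of 3 SOX factors passed, with Sox4 at 18.1, 24.9 and 13.3 FPKM in Wtap-CKO hearts, against 34.6, 28.8 and 23.1 FPKM in Wtapflox/flox hearts, which overlap (-0.62, adjusted p = 0.106). Sox4 passed as lower without Wtap-CKO replicate 2 (-0.84, adjusted p = 0.0286). The 2 channel members, the potassium channel Kcna5 (0.42, adjusted p = 0.156) and the connexin Gjd3 (0.91, adjusted p = 0.0662), did not pass. Each did with 1 library left out, Kcna5 without Wtap-CKO replicate 1 (0.63, adjusted p = 0.0363) and Gjd3 without Wtapflox/flox replicate 3 (1.18, adjusted p = 0.0188).

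Among the 124 other named members 18 were higher and 11 lower, with a median of 0.14, which was -0.03 to 0.09 under the other scalings. These counts were 7 to 24 higher and 2 to 11 lower with 1 library left out, and 11 to 14 higher and 10 to 17 lower under the other scalings. Tbcc, a tubulin-folding cofactor, had 36.9, 32.7 and 44.7 FPKM in Wtap-CKO hearts, against 12.7, 16.6 and 19.2 FPKM in Wtapflox/flox hearts (1.19 ± 0.18, adjusted p = 0.00328). Mcts2, a relative of the translation re-initiation factor MCTS1, had 17.7, 14.3 and 17.8 FPKM in Wtap-CKO hearts, against 7.23, 9.11 and 8.97 FPKM in Wtapflox/flox hearts (0.90 ± 0.14, adjusted p = 0.00386). It lies within H13 on the same strand, and H13 gave 0.20 (adjusted p = 0.242). No Wtap-CKO value of either member reached down to the controls.

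The largest fall was that of Fv1, a restriction factor of mouse retroviruses derived from a viral gag gene (ENSMUSG00000070583, chr4:147868979-147870358, plus strand). It had 1.26, 1.83 and 1.89 FPKM in Wtap-CKO hearts, against 6.32, 8.75 and 5.93 FPKM in Wtapflox/flox hearts (-1.58 ± 0.16, adjusted p = 0.000906). Every control library held more than 3 times the FPKM of the highest Wtap-CKO library. Paqr9, of the progestin and adiponectin receptor family, had 4.5, 4.98 and 2.95 FPKM in Wtap-CKO hearts, against 14.8, 11.0 and 9.38 FPKM in Wtapflox/flox hearts (-1.31 ± 0.20, adjusted p = 0.00405). Hils1, a linker histone-like gene of spermatids, had 0.502, 1.42 and 1.38 FPKM in Wtap-CKO hearts, against 4.71, 3.28 and 2.16 FPKM in Wtapflox/flox hearts (-1.05, adjusted p = 0.0314). It lies inside Sgca on the opposite strand, and its call is lost without Wtap-CKO replicate 1 (-0.83, adjusted p = 0.0697), Wtapflox/flox replicate 1 (-0.84, adjusted p = 0.0765) or Wtapflox/flox replicate 2 (-1.05, adjusted p = 0.0915).

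Mars2, the mitochondrial methionyl-tRNA synthetase, had 1.12, 1.45 and 1.03 FPKM in Wtap-CKO hearts, against 2.20, 2.60 and 2.39 FPKM in Wtapflox/flox hearts (-0.63 ± 0.13, adjusted p = 0.0127). Gas1, a membrane co-receptor for Hedgehog, had 13.9, 18.1 and 14.8 FPKM in Wtap-CKO hearts, against 26.6, 22.2 and 22.4 FPKM in Wtapflox/flox hearts (-0.58 ± 0.14, adjusted p = 0.0232). Prob1 fell by 0.66 (adjusted p = 0.0149) and Tspyl4 by 0.62 (adjusted p = 0.0125). The groups of these 4 genes were apart, but each call is lost when certain single libraries are left out: Wtapflox/flox replicate 2 for Mars2 (-0.59, adjusted p = 0.0557) and Tspyl4 (-0.57, adjusted p = 0.0539), Wtapflox/flox replicate 1 or 2 for Prob1 (-0.62, adjusted p = 0.0536 and 0.0619), and each Wtapflox/flox library or Wtap-CKO replicate 1 for Gas1 (-0.62 to -0.50, adjusted p = 0.0515 to 0.0899). The fibroblast markers Lum, Dcn and Dpt, given beside Gas1, fell by 1.02, 0.60 and 0.78. They are the 3 lower ones of 12 tested fibroblast markers, of which 9 did not pass. The median of the 12 was -0.19, and 4 lay above 0. The part of fibroblast content in the Gas1 values was not tested.

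**Figure D5:**
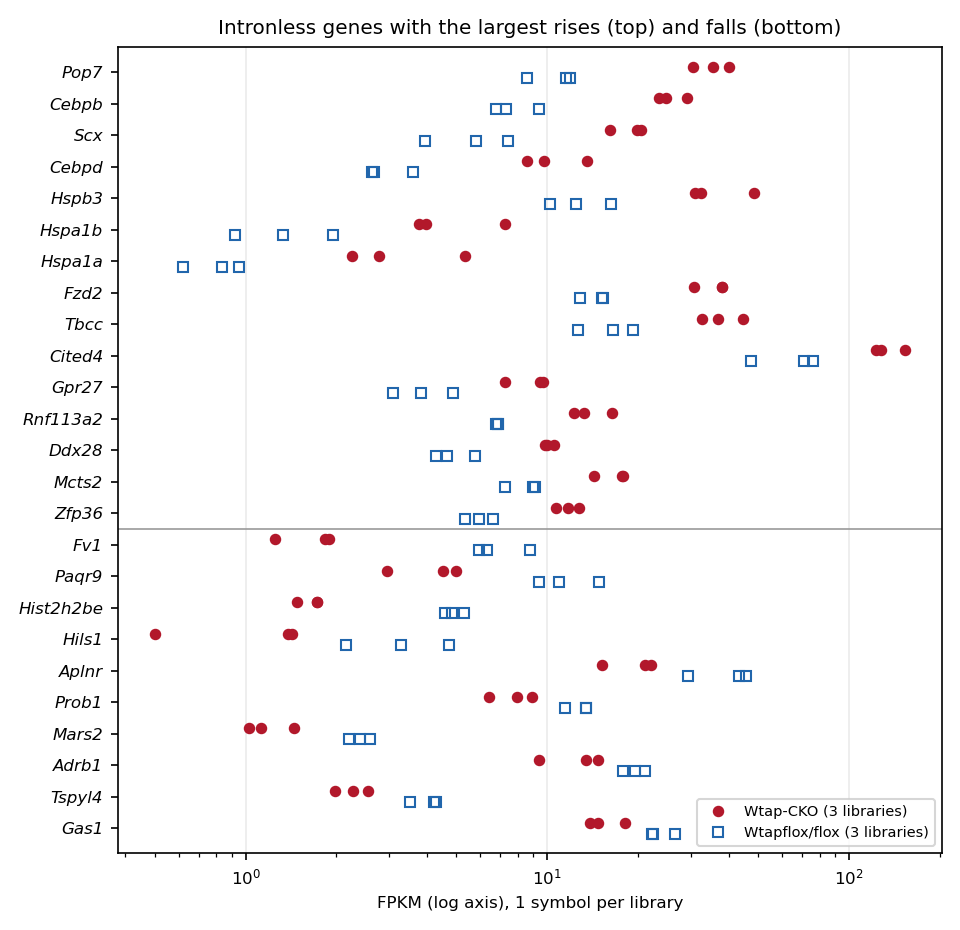
FPKM on a log axis in each library for the 15 named intronless genes with the largest rises (above the line) and the 10 with the largest falls (below it), filled red circles for Wtap-CKO and open blue squares for Wtapflox/flox. Genes were chosen with groups that do not overlap, so the separation in each row is part of the choice, and the distance between the colours is what the rows compare.

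Predicted genes without a functional name numbered 45, with 2 higher and 4 lower and a median of 0.05. Many are near-identical to expressed genes. Over all members, named genes included, 250 had a transcript to compare. Of these, 40 were at least 95% identical to another annotated transcript over at least 80% of their length. Not every such match is a separate copy: Cenpb matches Spef1, within which it lies on the same strand. Of the 40, 2 were higher and 1 lower, against 45 higher and 19 lower among the 210 without such a match. Gm10762 had 2.79, 2.80 and 3.00 FPKM in Wtap-CKO hearts, against 8.66, 6.0 and 7.72 FPKM in Wtapflox/flox hearts (-1.12 ± 0.14, adjusted p = 0.00168). Its groups were well apart. Rps12-ps3, among the most abundant members at a mean of 122 FPKM, ranged widely, at 119, 80.5 and 194 FPKM in Wtap-CKO hearts, against 106, 136 and 95.7 FPKM in Wtapflox/flox hearts, with no separation.

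Of the 67 called members, 27 kept the call with each library left out in turn, and 25 kept it at an adjusted p under 0.05 in every refit that tested them. The 15 largest rises of the named members were all among those 25, as were Fv1, Paqr9 and Hist2h2be. Stricter thresholds kept fewer, with 19 higher and 4 lower members at an adjusted p under 0.01 and 11 higher and 6 lower at a log2 fold change of at least 1. Under the 4 other scalings 29 of the 47 higher and 18 of the 20 lower members kept the call, and none of the 67 changed sign in any refit.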

How the data were processed

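Poly(A) RNA of 6 heart samples was sequenced. The authors deposited FPKM per gene; the tools were, per the submitters' processing notes, CASAVA, HISAT2 2.0.5, featureCounts 1.5.0-p3 and DESeq2 1.20.0. Those notes name GRCm39, but 206 of 206 members matched by symbol lie within 1000 bases of their GRCm38.p6 position, so coordinates are given on GRCm38. All deposited FPKM values were whole multiples of 1 read per gene within 0.01 of a read (100% of values), which gave the reads per library.

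The members and lists were chosen with earlier results of these data known. The 12568 genes averaging 1 FPKM or more were tested on log2(FPKM + 1) with limma 3.58.1 (trend and robust moderation, two-sided, R 4.3.3), without covariates, with Benjamini-Hochberg adjustment over all of them and a threshold of 0.05. Fold changes on this scale understate those of low genes. The p-values set the difference between genotypes against the spread within these 3 and 3 samples, moderated over all tested genes. Named genes are Wtap, the 15 largest rises and 10 largest falls past the threshold with groups apart (predicted genes left out), the 3 smallest adjusted p-values per role of at least 3 members with the first in the opposite direction, the 5 highest means, neighbours of the level limit, up to 3 called genes per pathway or marker list, and overlapping genes. Cebpa, Atf4, Dnajc30, Imp3, Kti12, Mrpl32, Rpl22l1, Fzd7, Hist1h4h, Rhob, Kcna5 and Gjd3 were added as further members of their classes after their values were seen. So was Rrs1, which lies outside the class it is given beside. The values of 1 gene under this rule are not reported here. Exon structure came from GENCODE M39, copies from BLAST 2.17.0, and promoters from RefSeq. Alternatives were scalings, filters, pseudocounts, moderation, a count-based limma-voom fit, a replicate block and leaving out each library. The fit was tested on simulated data.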

Additional observations from a re-analysis of the deposited data

How the results depend on the processing

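Without a filter on low values 25 members were higher and 7 lower (1206 of all genes changed), and among genes averaging 5 FPKM or more 9 were lower with a median of 0.26. The median was 0.076 with upper-quartile scaling. TPM scaling gave 31 higher, 31 lower and 0.013, and leaving mitochondrially encoded genes out of the total gave 30, 31 and 0.0037. Of all tested genes, 6.36% were then higher and 12.7% lower with TPM, and 6.16% and 12.7% without mitochondrially encoded genes. With array weights 32 members were lower and 3732 genes changed. An adjusted p under 0.01 left 19 higher, 4 lower and 785 of all genes, and a log2 fold change of at least 1 left 11, 6 and 413. Members overlapping no other gene gave 27 and 12, and members without an annotated spliced transcript a median of 0.072. With 1 library left out, 25 to 51 members were higher, 6 to 18 lower, and 1195 to 2012 genes changed, with medians of 0.12 to 0.18. Fitted on recovered reads with limma-voom, 51 were higher and 22 lower, and with at least 20 reads (chosen after seeing the data) 54 and 25.

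The replicate numbers do not pair the samples (correlations of same-numbered deviations -0.216, -0.075 and -0.076), and with the replicate block 38 members were higher and 17 lower. Signs reversed for genes near 0 only: Wtap (0.0076 with array weights, and -0.13 to 0.086 with 1 library left out, among them 0.047 without Wtap-CKO replicate 2), Sox11 (-0.036 with TPM, -0.042 without mitochondrial genes, and -0.062 to 0.17 with 1 left out), Fzd1 (0.053 with array weights, and -0.13 to 0.10 with 1 left out), Zcchc3 (-0.013 with TPM, -0.023 without mitochondrial genes) and Rps12-ps3 (-0.087 with quantile normalization, -0.021 with TPM, -0.031 without mitochondrial genes, -0.049 with array weights, and -0.18 to 0.45 with 1 left out). The cause was not tested. Of 2153 values of 104 named genes, 1853 kept direction and side of the threshold, 240 were weaker, 44 stronger and 16 reversed. Depth limits 7 members with a mean under 20 reads, none of which was called, and 3 called members had under 50.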

Other observations

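The 217 intronless olfactory, vomeronasal and trace amine receptor genes left out of the members held 17, 38 and 35 recovered reads in all in the Wtap-CKO libraries and 34, 38 and 39 in the Wtapflox/flox libraries. The candidate genes between 0 and the level limit held 2459 to 2830 reads per Wtap-CKO library and 2707 to 3105 per Wtapflox/flox library. Ch25h, cholesterol 25-hydroxylase, lay just under the limit with 1.24, 1.77 and 1.18 FPKM in Wtap-CKO hearts, against 0.170, 0.746 and 0.753 FPKM in Wtapflox/flox hearts, and was named as a neighbour of the limit, with no test.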
